A study of Mus musculus with 13 samples.

Results

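A set of 10 genes that carry glucose into the cell, commit it to glycolysis and turn pyruvate into exported lactate was followed through 8 mouse kidney libraries and, where listed, a mouse kidney cell line. They were picked by gene symbol, with earlier results of these data known. They are the glucose carrier Slc2a1, the hexokinases Hk1 and Hk2, the phosphofructokinases Pfkp, Pfkl and Pfkm, the pyruvate kinase Pkm, the lactate dehydrogenase subunits Ldha and Ldhb, and the lactate carrier Slc16a3. All 10 were among the 28183 genes of the kidney table, and all 10 passed the filter on low values (1 or more in 2 or more libraries) that left 14637 genes for the tests. The cell table listed 2016 genes, of which 4 were members (Hk2, Pfkl, Ldhb and Slc16a3).

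The study asked how polycystic kidneys, and the loss of the long noncoding RNA Hoxb3os in kidney cells, change the transcriptome. In the Pkd1 model, C57BL/6 mice carrying KSP/Cre and 2 floxed Pkd1 alleles (KSP/Cre+;Pkd1f/f, knockout) were compared at postnatal day 10 with KSP/Cre-;Pkd1f/f controls that have the floxed alleles and no Cre. In the Pkd2 model, Pkhd1/Cre+;Pkd2f/f knockouts were compared at day 20 with controls that have the same floxed Pkd2 alleles and no Cre. Each kidney group had 2 libraries. KSP/Cre is driven by the promoter of cadherin 16 and Pkhd1/Cre by that of the fibrocystin gene, both active in tubule or duct epithelium, so part of each kidney keeps the floxed gene. The cells were mIMCD-3, a line from the inner medulla of a mouse kidney. Gapmers, antisense oligonucleotides that direct cleavage of the RNA they bind, were transfected at 10 nM, with 3 libraries for the one against Hoxb3os and 2 for the control, and cells were collected 48 hours later.

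In glycolysis, glucose enters through carriers such as GLUT1 (Slc2a1) and is trapped by hexokinases. Phosphofructokinase then makes the step that commits it to the pathway, and pyruvate kinase ends the pathway in pyruvate. Lactate dehydrogenase is a tetramer: the A subunit (Ldha) favours the making of lactate from pyruvate, and the B subunit (Ldhb), common in oxidative tissue, favours the reverse. MCT4 (Slc16a3) carries lactate out of strongly glycolytic cells. Proximal tubule cells, the bulk of the kidney cortex, burn fatty acids and lactate and make glucose, and more distal segments use glycolysis more.

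The kidney values are read counts scaled to a common library size, called scaled reads below, and the depth recovered from them ran from 30700000 to 94400000 reads a library. The targeted genes were not called at the level of the whole gene, which does not resolve the floxed exons. Pkd1 stood at 31.1 and 22.7 scaled reads in its controls and at 24.1 and 26.0 in its knockouts, with overlap (limma log2 change -0.08 ± 0.20 SE, adjusted p = 0.817), and Pkd2 at 69.0 and 61.2 in its controls and at 50.7 and 53.3 in its knockouts (limma log2 change -0.32 ± 0.21 SE, Benjamini-Hochberg adjusted p = 0.332). The labels do not say whether replicates came from separate animals, and p-values measure only how far these libraries scatter. The groups were not balanced for sex: the sum of Y-linked genes ran from 0.0221 to 183 and Xist from 0.221 to 449, and in the Pkd2 model both controls and knockout replicate 2 lacked Y-linked reads almost wholly while knockout replicate 1 had them. In the Pkd1 model, control replicate 1 had Y-linked reads (155) and almost no Xist (0.221), control replicate 2 had both signals (10.4 and 416), and the knockouts had Y-linked sums of 149 and 183 with Xist at 25.3 and 27.7. The share of reads on small structural RNA ranged from 6.42% to 29.2%. In bulk kidney, a lower value may come from fewer cells of a type or from less RNA per cell, and the 2 cannot be told apart.

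In the mean of both models the largest changes among the members were those of Slc16a3 and Hk2, higher, and of Ldhb, lower. Averaged over both knockout models, Slc16a3 was 4.92-fold and Hk2 3.10-fold higher in knockouts on the log2(value + 1) scale, which understates the change of low genes, and Pfkp was 1.49-fold higher. On the reads recovered from the scaled values, the mean log2 change of Slc16a3 was 3.06 by edgeR and 3.09 by DESeq2 against 2.30 in limma's fit, and that of Hk2 was 2.11 and 2.15 against 1.63. Ldhb stood at 0.588 and Pfkm at 0.686 of control. In limma's test of the mean of the 2 effects these 5 members were called at an adjusted p below 0.05, 3 higher and 2 lower, where 31% of all tested genes were called (15.2% higher and 15.7% lower). The other 5, Slc2a1, Hk1, Pfkl, Pkm and Ldha, were not called.

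**Figure D1:**
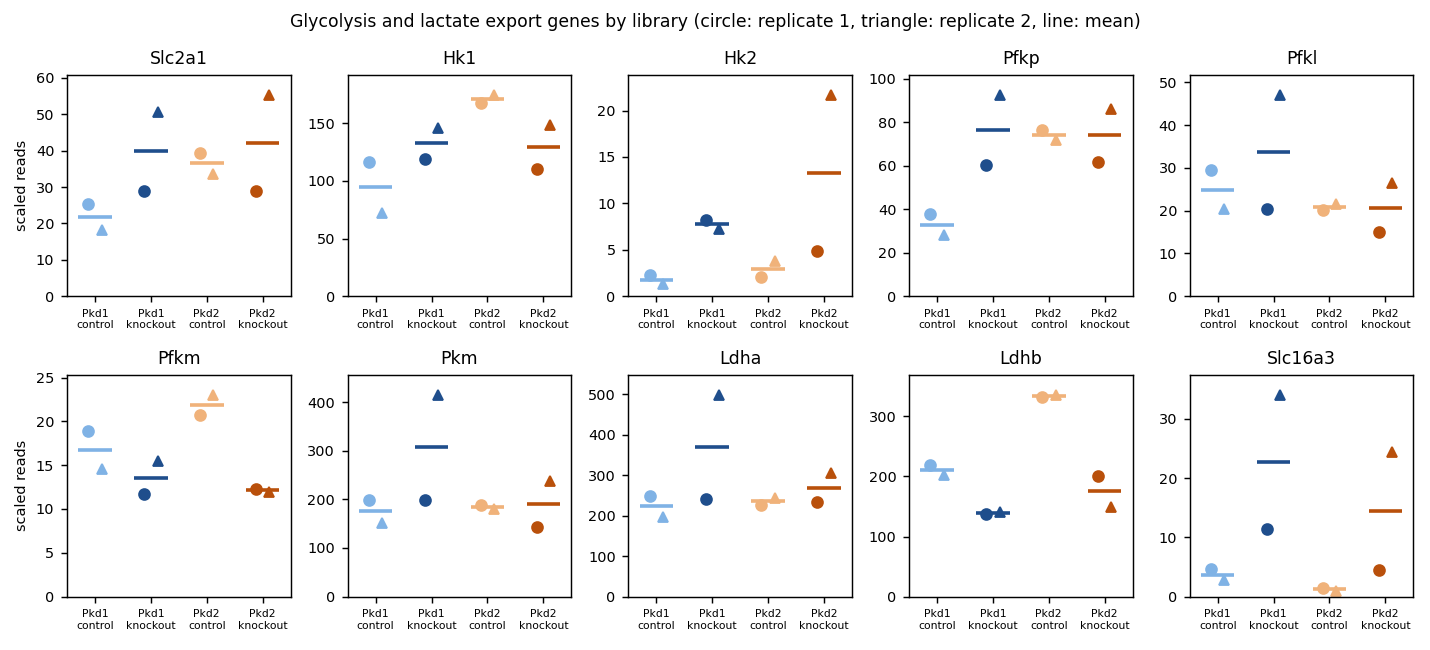
Scaled reads of each member gene in the 8 kidney libraries, 1 panel a gene with its own axis from 0. Circles are replicate 1, triangles replicate 2 and lines group means; Slc16a3 and Hk2 lie higher in all knockout libraries of a model than in its controls, Ldhb lower, and the knockout replicate 2 triangles lie above the circles for most members.

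Slc16a3, the lactate exporter, lies at chr11:120948480-120960868 on the plus strand (mm10, as are all gene positions here). At day 10 it stood at 4.64 and 2.76 scaled reads in Pkd1 controls and at 11.4 and 34.0 in Pkd1 knockouts. At day 20 it stood at 1.51 and 0.971 in controls and at 4.51 and 24.5 in knockouts. Every knockout library was thus above both controls of its model, and within each knockout pair replicate 2 was far above replicate 1. The log2 fold change was 2.18 ± 0.67 (SE) in the Pkd1 model, which missed the threshold (limma adjusted p = 0.0750), and 2.41 ± 0.67 in the Pkd2 model, which passed it (limma adjusted p = 0.0403). As the mean of both models it was 2.30 ± 0.48 (limma adjusted p = 0.00791). Without Pkd2 knockout replicate 2 the Pkd2 change was 1.31 (limma adjusted p = 0.199), and without either Pkd2 control or either Pkd1 control it was not called (limma adjusted p = 0.0679 to 0.194), while the mean over both models stayed called in each of the 8 fits that left out a library (1.75 to 2.85). The authors' deposited table gives Slc16a3 a log2 change, control minus knockout, of -2.61 for Pkd1 and -3.55 for Pkd2, with adjusted p of 4.37e-09 and 7.44e-15.

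Hk2, the inducible hexokinase that binds mitochondria, lies at chr6:82725025-82774454 on the minus strand. Pkd1 controls had 2.26 and 1.29 scaled reads of it, and Pkd1 knockouts 8.25 and 7.26. Pkd2 controls had 2.05 and 3.82, and Pkd2 knockouts 4.82 and 21.7. The groups did not overlap in either model, and the highest value was again in Pkd2 knockout replicate 2. The log2 fold change was 1.68 ± 0.53 (SE) for Pkd1 (limma adjusted p = 0.0817) and 1.58 ± 0.53 for Pkd2 (limma adjusted p = 0.0730), neither past the threshold. Without Pkd2 knockout replicate 2 the Pkd2 change was 0.60 (limma adjusted p = 0.321), and without Pkd2 knockout replicate 1 it was 2.57 and called (limma adjusted p = 0.00145). The mean of both models, 1.63 ± 0.38, was past the threshold (limma adjusted p = 0.0125), and without Pkd1 control replicate 2 it was just outside (1.50, limma adjusted p = 0.0510). The authors' deposited table gives Hk2 a control-minus-knockout log2 change of -2.11 for Pkd1 and -2.17 for Pkd2, with adjusted p of 4.62e-06 and 1.31e-06. Hk1, the constitutive hexokinase, went apart in the 2 models: 117 and 72.6 scaled reads in Pkd1 controls against 119 and 146 in knockouts, and 168 and 175 in Pkd2 controls against 110.2 and 148 in knockouts. Neither log2 change was called (0.51 ± 0.26 and -0.42 ± 0.26, limma adjusted p = 0.239 and 0.296), nor was their difference (0.93 ± 0.37, limma adjusted p = 0.515).

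Of the phosphofructokinases, Pfkp, the platelet form, rose in the Pkd1 model and Pfkm, the muscle form, fell in the Pkd2 model. Pfkp (chr13:6579768-6648777, minus strand) stood at 37.7 and 28.2 scaled reads in Pkd1 controls and at 60.2 and 92.7 in Pkd1 knockouts. At day 20 it stood at 76.3 and 71.9 in Pkd2 controls and at 61.7 and 86.2 in knockouts. The Pkd1 knockouts thus lay near the level of the day 20 animals of either genotype. The log2 fold change was 1.17 ± 0.26 (SE) in the Pkd1 model (limma adjusted p = 0.0244) and -0.02 ± 0.26 in the Pkd2 model (limma adjusted p = 0.966). The authors' deposited adjusted p of Pfkp was 0.0159 for Pkd1. The difference between these effects, 1.19 ± 0.36, had an unadjusted p of 0.00973 in limma's fit and an adjusted p of 0.349, so it was not called. Without Pkd1 control replicate 1, Pkd1 control replicate 2 or Pkd1 knockout replicate 2 the Pkd1 change was no longer called (limma adjusted p = 0.0749, 0.137 and 0.120). The mean over both models, 0.58 ± 0.18 (limma adjusted p = 0.0410), was called only without replicate 1 of either knockout, and not without any of the other 6 libraries (limma adjusted p = 0.0551 to 0.127).

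Pfkm (chr15:98092589-98132447, plus strand) stood at 20.7 and 23.0 scaled reads in Pkd2 controls and at 12.3 and 11.9 in Pkd2 knockouts, without overlap. In the Pkd1 model, 19.0 and 14.5 in controls overlapped with 11.7 and 15.5 in knockouts. The log2 fold changes were -0.80 ± 0.20 (SE) for Pkd2 (limma adjusted p = 0.0246) and -0.28 ± 0.20 for Pkd1 (limma adjusted p = 0.388). Without Pkd2 control replicate 1, Pkd2 control replicate 2 or Pkd2 knockout replicate 2 the Pkd2 change was not called (limma adjusted p = 0.0989, 0.172 and 0.0964). The mean over both models, -0.54, was not called without Pkd1 control replicate 1, Pkd1 knockout replicate 1 or Pkd2 control replicate 2 (limma adjusted p = 0.068, 0.0641 and 0.0802). Pfkl, the liver form, ranged from 14.9 to 47.1 scaled reads over all libraries, overlapped between knockouts and controls in both models, and was not called in either (0.33 ± 0.39 and -0.07 ± 0.39, limma adjusted p = 0.625 and 0.926). Pfkp shares bases with Pitrm1 on the opposite strand (at most 18.2 scaled reads) and Pfkm with Senp1 (at most 26.9), and since no source used here gives the strand setting of the counting, reads of each pair cannot be told apart.

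Pyruvate kinase and the A subunit of lactate dehydrogenase were abundant and variable. Pkm stood at 199 and 152 scaled reads in Pkd1 controls, 199 and 415 in Pkd1 knockouts, 189 and 180.1 in Pkd2 controls and 144 and 237 in Pkd2 knockouts. Ldha stood at 249 and 198, at 242 and 498, at 226 and 244, and at 234 and 305 in the same 4 groups. In both genes a single library, Pkd1 knockout replicate 2, was far above the other 7, and controls and knockouts overlapped. The log2 fold changes of Pkm were 0.72 ± 0.36 (SE) for Pkd1 and 0.00 ± 0.36 for Pkd2 (limma adjusted p = 0.236 and 0.995), and those of Ldha were 0.64 ± 0.33 and 0.18 ± 0.33 (limma adjusted p = 0.249 and 0.741). Without Pkd1 knockout replicate 2 the Pkd1 change was 0.20 for Pkm and 0.12 for Ldha.

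Ldhb, the subunit of oxidative tissue, differed in the opposite direction, and its replicates lay close together in all groups but the Pkd2 knockouts. At chr6:142490249-142507957 (minus strand), it stood at 219 and 202 scaled reads in Pkd1 controls and at 138 and 141 in Pkd1 knockouts. Pkd2 controls had 332 and 336, and Pkd2 knockouts had 202 and 149. All knockout libraries were below both of their controls. The log2 fold change was -0.59 ± 0.20 (SE) for Pkd1 (limma adjusted p = 0.10) and -0.94 ± 0.20 for Pkd2 (limma adjusted p = 0.0156), and their mean of -0.77 ± 0.14 was called (limma adjusted p = 0.00502). Without either Pkd2 control or Pkd2 knockout replicate 2 the Pkd2 change was not called (limma adjusted p = 0.063 to 0.116), while the mean stayed called without any 1 library (-0.88 to -0.66). The authors' deposited table gives Ldhb an adjusted p of 0.433 for Pkd1 and 0.0870 for Pkd2.

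Slc2a1, the GLUT1 carrier at chr4:119108711-119137983 (plus strand), stood at 25.5 and 18.1 scaled reads in Pkd1 controls and at 29.0 and 50.6 in Pkd1 knockouts. The 39.4 and 33.5 of the Pkd2 controls lay between the 28.8 and 55.4 of their knockouts. Its log2 fold changes, 0.81 ± 0.35 (SE) and 0.13 ± 0.35, were not called (limma adjusted p = 0.172 and 0.824).

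Counted over members, 1 of 10 was called in the Pkd1 model (Pfkp, higher), where 10.6% of all tested genes were called (5.11% higher and 5.48% lower). For Pkd2, 3 of 10 were called, Slc16a3 higher and Ldhb and Pfkm lower, where 17.7% of all tested genes were called (9.54% higher and 8.13% lower). Groups did not overlap for 6 members in the Pkd1 model, 5 of them higher (background 58.3% of all tested genes, 29.1% higher and 29.2% lower), and for 5 in the Pkd2 model, 2 of them higher (background 62.7%, 31.9% higher and 30.9% lower). The totals were near the background, while the Pkd1 split, 5 higher and 1 lower of 10 members, was less even than that of all tested genes, with no test of its own. The median log2 fold change of the 10 members was 0.68 in the Pkd1 model and -0.01 in the Pkd2 model, against 0.00 and -0.01 for all tested genes. The Pkd1 median leaned in part on knockout replicate 2. Without that library, Pkm and Ldha, which lay on either side of the median, were at 0.20 and 0.12. Hk1 was then at 0.37, Slc2a1 at 0.41 and Pfkl at -0.25, while Hk2 was at 1.76. No member was called for a difference between the models by limma, edgeR or DESeq2, which called 0.00683%, 0.0342% and 1.26% of all tested genes (1 gene by limma). With the small structural RNA share as a covariate, limma called Pfkp (1.42, adjusted p = 0.0457), where 0.266% of all tested genes were called. In limma's fit without it, 2 members had an unadjusted limma p below 0.05, Hk1 (0.0318) and Pfkp. Model, Cre line and age differ together in that comparison.

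**Figure D2:**
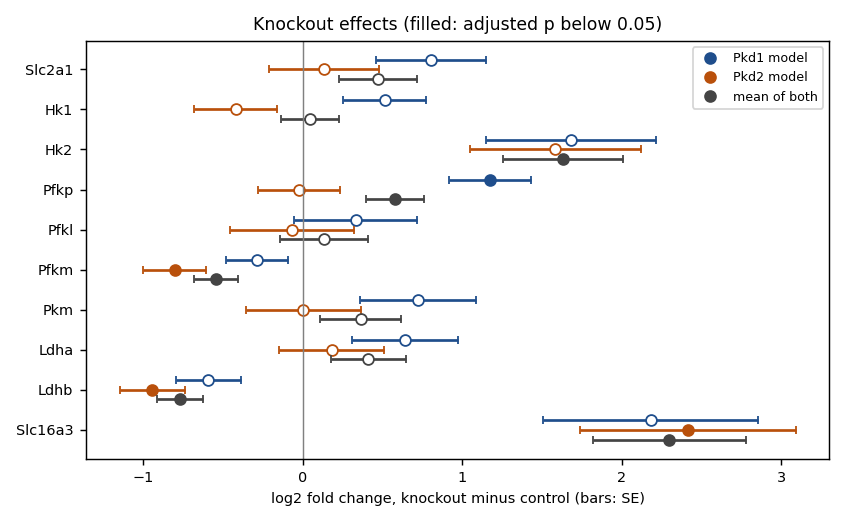
Log2 fold change, knockout minus control, of the 10 members in the Pkd1 model (blue), the Pkd2 model (orange) and as the mean of both (grey), with bars of 1 SE from limma. Filled points have an adjusted p below 0.05; Slc16a3 (2.30) and Hk2 (1.63) have the highest means and Ldhb (-0.77) the lowest.

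The mix of isozymes is given here per kilobase of exon, with the union of all annotated exons of a gene (GENCODE vM21) as its length. That union was 3310 bases for Ldha, 1570 for Ldhb, 13401 for Pfkp and 3340 for Pfkm. It can be longer than the transcripts present, which were not measured. The order of genes and the majority form in a family therefore depend on that length. Over all 8 libraries the mean level per kilobase was highest for Ldhb (137 scaled reads), followed by Ldha (82.9), Pkm (42.9), Hk1 (15.5), Slc2a1 (10.0), Pfkm (4.81), Pfkp (4.80), Pfkl (3.76), Slc16a3 (1.98) and Hk2 (1.08). Neighbouring phosphofructokinases in that order had means within the spread between libraries. The order differed by group: in Pkd1 knockouts the mean of Ldha (112) was above that of Ldhb (88.7) and that of Slc16a3 (4.28) above that of Pfkm (4.07), and in Pkd2 controls Hk2 (0.492) was above Slc16a3 (0.233). Ldha made up 35.0% and 31.7% of the lactate dehydrogenase transcripts per kilobase in Pkd1 controls and 45.4% and 62.6% in Pkd1 knockouts. At day 20 it made up 24.5% and 25.7% in Pkd2 controls and 35.5% and 49.3% in knockouts. On this scale Ldha was the majority form in a single library, Pkd1 knockout replicate 2. In scaled reads not divided by length, Ldha was above Ldhb in the Pkd1 knockouts (242 and 498 against 138 and 141). It was also above Ldhb in the Pkd2 knockouts (234 and 305 against 202 and 149) and in Pkd1 control replicate 1 (249 against 219). Ldha was below Ldhb in Pkd1 control replicate 2 and in both Pkd2 controls.

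Hk2 made up 2.69% and 2.48% of hexokinase transcripts of Hk1 and Hk2 in Pkd1 controls and 9.02% and 6.62% in Pkd1 knockouts, against 1.72% and 3.03% in Pkd2 controls and 5.89% and 17.3% in Pkd2 knockouts. Hk1 therefore stayed the main form of the pair in every library. Among the phosphofructokinases, Pfkm made up 44.0% and 45.8% in Pkd1 controls and 31.6% and 24.9% in knockouts, and 41.6% and 44.5% in Pkd2 controls and 35.1% and 25.5% in knockouts. Pfkp made up 21.8% and 22.1% in Pkd1 controls, 40.7% and 37.2% in Pkd1 knockouts, 38.1% and 34.6% in Pkd2 controls and 43.7% and 46.1% in Pkd2 knockouts.

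The shares of Ldha, Hk2, Pfkm and Pfkp did not overlap between knockouts and controls in either model. Nor did the values of 58.3% (Pkd1) and 62.7% (Pkd2) of all tested genes, and no such background was made for shares. The Pfkl share overlapped in the Pkd1 model (34.2% and 32.0% in controls, 27.7% and 37.9% in knockouts). In the Pkd2 model it was 20.3% and 20.9% in controls and 21.25% and 28.45% in knockouts. The mean knockout-minus-control difference was 1.18 for the log2 ratio of Ldha to Ldhb, 1.58 for Hk2 to Hk1 and 1.119 for Pfkp to Pfkm. With labels exchanged within each model there are 36 arrangements, so a two-sided exact permutation test cannot go below p = 0.0556, and each of the 3 ratios reached that value (adjusted over the 3, also 0.0556). Each ratio was higher in every knockout library than in both controls of its model. That separation alone fixes the smallest p, so the test adds nothing to it. A ratio within a library shows unequal change of its 2 genes and not which of them moved.

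**Figure D3:**
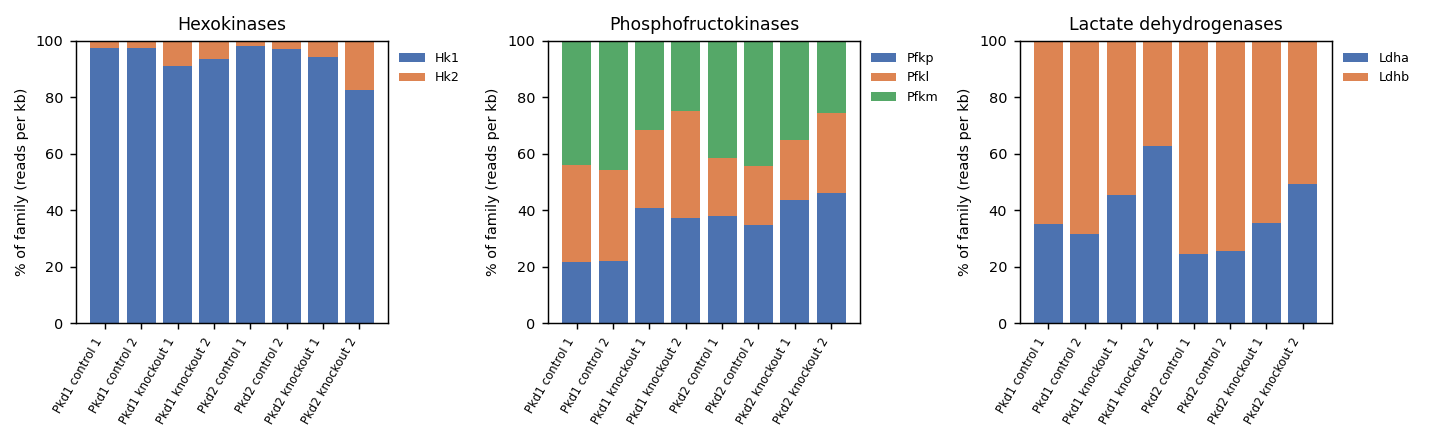
Share of each isozyme gene in its family, in percent of scaled reads per kilobase of exon, in each of the 8 kidney libraries. The Ldha share runs from 24.5% to 35.0% in controls and from 35.5% to 62.6% in knockouts, and the Pfkm share from 41.6% to 45.8% in controls and from 24.9% to 35.1% in knockouts.

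Replicates within a group differed in most members together. In the Pkd1 knockouts 9 of 10 members, and in the Pkd2 knockouts 8 of 10, were higher in replicate 2 than in replicate 1, by a median of 0.71 and 0.60 on the log2 scale, while the median over all tested genes was 0.00 in both. In the Pkd1 controls all 10 were lower in replicate 2 (median -0.45), and in the Pkd2 controls 6 were higher (median 0.04). The share of small structural RNA was lower in replicate 2 of both knockouts (29.2% to 13.4% and 23.7% to 6.42%), higher in replicate 2 of the Pkd1 controls (15.9% to 23.9%) and about level in the Pkd2 controls (20.4% and 19.8%), the reverse order of the members. With that share as a covariate in limma's fit, 7 members were called in the Pkd1 model, with log2 changes of 0.80 for Pkm (adjusted p = 0.0118), 0.70 for Ldha (adjusted p = 0.0359) and 0.88 for Slc2a1 (adjusted p = 0.00544) besides Hk2, Pfkp, Ldhb and Slc16a3. That fit called 18% of all tested genes in the Pkd1 model, 2638 against 1550 without the covariate. For Pkd2, where it called 20.9%, the changes of these 3 genes were then -0.26, -0.03 and -0.13 and were not called.

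Across the 8 libraries the members fell into loose groups, given as descriptions over points that share group, depth and scaling. Pkm and Ldha had a Pearson r of 0.96, Pkm and Pfkl of 0.93, and Pfkp and Slc2a1 of 0.93. Ldhb and Pfkm had an r of 0.84, and Ldhb and Slc16a3 one of -0.91. Among 9471 tested genes with a mean of at least 5, the genes most like Slc16a3 were Dnajc5 (0.99), Phactr2 (0.99) and Lrrfip1 (0.98). Those most like Pfkp were Gpd2 (0.97), which encodes the mitochondrial glycerol phosphate dehydrogenase, Fam20b (0.96) and Yy1 (0.96). Those most like Ldhb were Hdhd2, Pmpcb and Ndufs1 (1.00, 1.00 and 0.99), the last of them a subunit of respiratory complex I.

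Markers of tubule, immune and stromal cells moved with the knockouts as well. The summed level of 10 proximal tubule markers was 2985 and 3354 scaled reads in Pkd1 controls against 853 and 1092 in knockouts, and 6453 and 6832 in Pkd2 controls against 3602 and 1764 in knockouts. Of these 10, limma called 9 lower in the Pkd1 model and 8 in the Pkd2 model. The summed level of 10 macrophage markers was 51.1 and 45.2 against 145 and 142 in the Pkd1 model, and 48.7 and 50.5 against 221 and 255 in the Pkd2 model, with 9 of 10 called higher in each. The 6 thick ascending limb markers summed to 1151 and 953 against 351 and 529 in the Pkd1 model, with 3 called lower, and to 4383 and 4309 against 1082 and 905 in the Pkd2 model, with 4 called lower. Collecting duct principal cell markers, also 6, summed to 94.6 and 74.9 against 85.2 and 227, with overlap and 2 called higher, and to 130 and 92.3 against 131 and 138, with 4 called higher. The 8 fibroblast and myofibroblast markers summed to 1620 and 1102 against 2833 and 2459, with 3 called higher (Col1a2, Postn and Acta2) and Pdgfra, Pdgfrb and Dcn at log2 changes of -0.50, -0.28 and -0.52, not called. In the Pkd2 model they summed to 764 and 829 against 1601 and 1822, with 4 called higher. Neutrophil markers were low, at sums of 2.06 and 1.95 against 4.22 and 5.97 in the Pkd1 model and of 2.45 or less in controls against 2.10 and 4.97 in the Pkd2 model. Of the 3 neutrophil markers tested, limma called 2 higher in the Pkd1 model (S100a8 and S100a9, adjusted p = 0.0359 and 0.0496) and 1 in the Pkd2 model. Skeletal muscle markers summed to 2.66 or less in every library, and no erythroid marker was called in either model. The part of these cells in the changes of Slc16a3, Hk2 and Ldhb was not tested.

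The other enzymes of glycolysis, a list of 16 of which 15 were tested, did not move as a block. In the Pkd1 model 1 of them rose, Hkdc1, a protein with hexokinase domains (log2 change 1.25, limma adjusted p = 0.0189), and none fell. For Pkd2, 3 rose: Hkdc1 (1.26, limma adjusted p = 0.0128), the myeloid hexokinase Hk3 (1.38, limma adjusted p = 0.0057) and Eno2 (0.79, limma adjusted p = 0.0275). Another 2 fell, Aldoc (-1.28, limma adjusted p = 0.0477) and Pgam2 (-1.77, limma adjusted p = 0.00369). Hk3 stood at 0.286 and 0.419 scaled reads in Pkd2 controls and at 1.77 and 3.49 in knockouts. Its Pkd1 change of 0.62 was not called by limma (adjusted p = 0.125), and DESeq2 called it. The macrophage markers given above were higher in the knockouts of both models. Their part in the Hk3 values was not tested. Among the listed enzymes of high level, Gapdh (0.13 and -0.49), which ranged from 883 to 1646 scaled reads, and Aldoa (0.28 and -0.40) were not called in either model. The list's median log2 change was 0.20 in the Pkd1 model and -0.35 in the Pkd2 model.

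Among 10 other carriers of glucose, lactate and pyruvate and their partners, 9 were tested: limma called none higher and 2 lower for Pkd1, and 1 higher and 3 lower for Pkd2. Slc16a7, a high-affinity monocarboxylate carrier (MCT2), fell in both models. It went from 33.9 and 29.6 to 11.9 and 18.2 scaled reads in the Pkd1 model (-1.06, limma adjusted p = 0.0153), and from 79.4 and 76.1 to 20.7 and 20.2 in the Pkd2 model (-1.88, limma adjusted p = 0.00108). Slc2a4, the insulin-responsive GLUT4, fell too (-0.88 and -2.56, limma adjusted p = 0.0421 and 0.000534). Beside it, the 5 fat markers summed to 106 and 148 in Pkd2 controls and to 71.7 and 25.3 in knockouts, and to 77.3 and 64.6 in Pkd1 controls and 75.1 and 76.7 in knockouts. Most of each sum was Fabp4, at 80.3 and 102 in Pkd2 controls and 65.5 and 25.1 in knockouts, not called. Of the 5, limma called 2 lower in the Pkd2 model, Ucp1 and Cidea (adjusted p = 0.0094 and 0.0151), and none in the Pkd1 model. The part of fat in the Slc2a4 change was not tested. Slc2a3 (GLUT3) rose in the Pkd2 model (1.64, limma adjusted p = 0.0388), and Mpc1, a subunit of the mitochondrial pyruvate carrier, fell there (-1.22, limma adjusted p = 0.0171). Slc16a1 (MCT1), the widely expressed lactate carrier, was not called in either model (-0.20 and 0.53, limma adjusted p = 0.474 and 0.0529), and neither was Bsg, the chaperone of MCT1 and MCT4 (-0.38 and -0.47, limma adjusted p = 0.397 and 0.251). In the mean of both models 7 of the 9 were called, with Emb higher (0.43) and Slc2a2 (-1.10) and Mpc2 (-1.18) lower besides Slc16a7, Slc2a4, Slc2a3 and Mpc1.

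**Figure D4:**
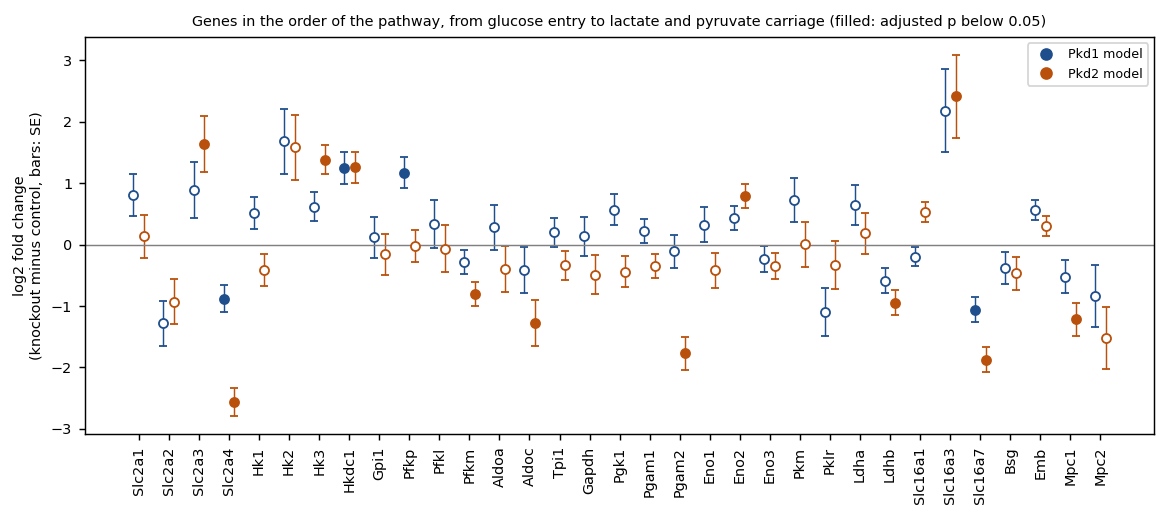
Log2 fold change, knockout minus control, with bars of 1 SE from limma, for the members and other tested enzymes and carriers, ordered from glucose entry to lactate and pyruvate carriage. Blue is the Pkd1 model, orange the Pkd2 model, and filled points have an adjusted p below 0.05; Slc16a3 (2.18 and 2.41) has the highest values and Slc2a4 in the Pkd2 model (-2.56) the lowest.

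Of 12 enzymes that set the flux around these steps, limma called none in the Pkd1 model (4 had an unadjusted p below 0.05; edgeR, which called 10.5% of all tested genes, called none, and DESeq2, which called 15.1%, called 2, Pfkfb3 higher and Pdk2 lower). For Pkd2, 3 fell: the pyruvate dehydrogenase kinase Pdk2 (-1.19, limma adjusted p = 0.0223) and the pyruvate dehydrogenase subunits Pdha1 (-0.67, limma adjusted p = 0.0338) and Pdhb (-0.95, limma adjusted p = 0.00756). Pfkfb3, which makes the activator of phosphofructokinase, was called higher in the mean of both models (0.70, limma adjusted p = 0.0460). Of 10 transcriptional regulators of the pathway, Mlxipl (ChREBP), the glucose-responsive factor, fell in both models (-1.42 and -1.26, limma adjusted p = 0.0364 and 0.0397). DESeq2 also called it in both models, and edgeR called it in the Pkd1 model and not in the Pkd2 model. Myc rose in the Pkd2 model from 8.99 and 8.87 to 30.7 and 47.3 scaled reads (1.98, limma adjusted p = 0.00252). Its Pkd1 change of 0.92 was not called by limma (adjusted p = 0.0598) or edgeR, and DESeq2 called it higher. Hif1a, the oxygen-regulated subunit of the hypoxia factor, was not called (0.47 and 0.12, limma adjusted p = 0.230 and 0.753). Egln3 was not called in the mean of both by limma (0.88, adjusted p = 0.0716), and edgeR and DESeq2 called it higher there.

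Of 10 hypoxia-induced genes outside glycolysis, limma and edgeR called none in either model, with 3 (Pkd1) and 1 (Pkd2) at an unadjusted limma p below 0.05. DESeq2 called 2 for Pkd1, P4ha2 higher and Car9 lower, and none for Pkd2. Vegfa, the vascular growth factor, was called lower in the mean of both (-0.68, limma adjusted p = 0.0352). In that mean edgeR called Vegfa alone, lower, and DESeq2 called Adm and Kdm3a higher and Car9 and Vegfa lower (4417 and 4682 of all genes called). With the small structural RNA share as a covariate, limma called Adm and Kdm3a higher and Vegfa lower in the mean (5466 of all genes). That fit called Adm and P4ha2 higher for Pkd1 (2638) and Vegfa lower for Pkd2 (3061). The list's median log2 change was 0.35 in the Pkd1 model and 0.03 in the Pkd2 model.

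The sequences upstream of the start sites are shown for the 5 members called in the mean of both models, since MCT4 and hexokinase 2 are textbook targets of hypoxia-inducible factors, whose core motif is ACGTG or GCGTG. RefSeq windows (GRCm38.p6) hold the 250 bases before the start, written 5′ to 3′ on the gene's strand, with matches to either motif on either strand in capitals. They lie at chr11:120948817-120949066 (plus) for Slc16a3, chr6:82774455-82774704 (minus) for Hk2, chr6:142507958-142508207 (minus) for Ldhb, chr15:98092339-98092588 (plus) for the first of the Pfkm windows and chr13:6648772-6649021 (minus) for Pfkp. RefSeq places the start of Slc16a3 downstream of the start given above, so this window lies inside the gene as placed there, and the Pfkp window overlaps the gene's first bases.
Slc16a3: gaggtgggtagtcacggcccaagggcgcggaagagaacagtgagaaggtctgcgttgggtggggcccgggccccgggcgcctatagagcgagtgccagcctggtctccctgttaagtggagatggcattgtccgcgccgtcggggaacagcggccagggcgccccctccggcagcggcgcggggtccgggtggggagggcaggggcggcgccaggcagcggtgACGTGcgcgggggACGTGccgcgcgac
Hk2: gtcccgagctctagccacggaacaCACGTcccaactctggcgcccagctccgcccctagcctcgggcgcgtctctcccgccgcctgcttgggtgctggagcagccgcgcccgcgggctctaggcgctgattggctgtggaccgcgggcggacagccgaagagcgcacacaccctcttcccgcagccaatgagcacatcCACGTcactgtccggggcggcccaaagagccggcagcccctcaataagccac
Ldhb: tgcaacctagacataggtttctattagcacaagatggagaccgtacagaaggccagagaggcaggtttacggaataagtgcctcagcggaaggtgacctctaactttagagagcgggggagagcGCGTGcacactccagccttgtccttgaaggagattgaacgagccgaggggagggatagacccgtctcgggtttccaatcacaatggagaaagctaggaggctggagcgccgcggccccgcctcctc
Pfkm: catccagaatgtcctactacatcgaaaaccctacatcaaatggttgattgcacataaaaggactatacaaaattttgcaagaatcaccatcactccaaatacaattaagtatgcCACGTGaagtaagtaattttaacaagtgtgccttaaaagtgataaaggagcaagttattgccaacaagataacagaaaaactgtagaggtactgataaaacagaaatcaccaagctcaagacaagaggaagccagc
Pfkp: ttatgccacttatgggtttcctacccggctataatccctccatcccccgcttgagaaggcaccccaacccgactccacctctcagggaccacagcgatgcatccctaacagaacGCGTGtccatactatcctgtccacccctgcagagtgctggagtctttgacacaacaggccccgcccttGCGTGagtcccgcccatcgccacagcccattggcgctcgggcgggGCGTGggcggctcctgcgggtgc
Slc16a3 and Hk2, both higher in knockouts, each had 2 matches to ACGTG and none to GCGTG. So did the first window of Pfkm, which was lower, as 1 palindrome CACGTG. The other Pfkm windows start downstream, from chr15:98108221 on. Of these, the second window had 1 match to each motif, the third 1 to GCGTG and the fourth none. Pfkp had 3 matches to GCGTG, and Ldhb had 1. Of the members not called, Slc2a1 had 1 match to each motif, and Ldha 5 to ACGTG in its first window and 1 to GCGTG in its second. Pkm had 1 to ACGTG in its second, Pfkl 1 to GCGTG and Hk1 3 to GCGTG in its second. Of the 32851 windows of this length in the table, 16.57% held ACGTG and 6.81% held it at least 2 times, and 28.16% held GCGTG; the palindrome CACGTG counts as 2 overlapping matches. A match is a description of the letters and not of binding.

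Between controls, Pfkp was 2.23-fold higher at day 20 than at day 10 (1.16 ± 0.26 SE on the log2 scale, limma adjusted p = 0.0208). It was the only member called, where 12.3% of all tested genes were called (5.04% higher). Hk1 (0.89 ± 0.26, limma adjusted p = 0.0579) and Ldhb (0.66 ± 0.20, limma adjusted p = 0.0682) were higher at day 20 without overlap and lay just outside the threshold. Slc16a3 was lower without overlap (-1.05 ± 0.67, limma adjusted p = 0.362). In all, 6 members did not overlap between the ages, 5 of them higher, against 62.3% of all tested genes (31.1% higher and 31.2% lower). Age, floxed gene and sex signals differ together here, and the summed Y-linked level was 155 and 10.4 at day 10 against 0.104 and 0.0221 at day 20. With that level as a covariate, limma called Ldhb (0.95, adjusted p = 0.0461) and not Pfkp (1.02, adjusted p = 0.126), where 7.36% of all tested genes were called. These libraries are the controls of the knockout comparisons. Without any 1 of the 4 control libraries the Pfkp difference was no longer called (limma adjusted p = 0.0682 to 0.135).

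In mIMCD-3 cells, the 4 members listed are those the authors' selection left, since every gene of that table has a deposited adjusted p below 0.05. With 2015 of 2016 genes called by limma (100% after rounding, 44.4% higher and 55.6% lower), their calls are a description and carry no weight of their own. Hk2 stood at 1322 and 1119 size-factor-scaled reads in control cells and at 1604, 1512 and 1473 with the Hoxb3os gapmer (log2 change 0.33 ± 0.06 SE). Slc16a3 stood at 561 and 476 in control cells and at 413, 364 and 389 with the gapmer (-0.41 ± 0.09), a change that quantile scaling put at -0.22 (limma adjusted p = 0.0561). The groups did not overlap for either gene. In genes selected on this same comparison that carries no weight either, and no share over all listed genes was made for it. Slc16a3 was lower with the gapmer whereas it was higher in the knockout kidneys.

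Ldhb stood at 4643 and 5067 in control cells and at 4228, 4237 and 4183 with the gapmer (-0.20 ± 0.05). Pfkl stood at 17980 and 18409 against 16202, 15865 and 16092 (-0.18 ± 0.04). The other 6 members are not in that table, and Hoxb3os itself has no row in it, so the knockdown was not checked here. The selected table also lists 16 genes of the pathway lists, 3 higher and 13 lower. Of the enzymes, Gpi1, Aldoa, Tpi1, Pgam1 and Eno2 were lower, with log2 changes from -0.33 to -0.10, the pyruvate dehydrogenase kinase Pdk4 was lower (-0.61), and Eno3 was higher (0.46). Of the carriers and their partners, Slc2a2 (GLUT2) was higher (0.78), and Emb (-0.46) and Mpc2 (-0.21) were lower. Hif1a (-0.11), Arnt (-0.11), Egln1 (-0.20), an oxygen sensor that marks Hif1a for destruction, and the hypoxia-induced Kdm3a (-0.43) and Ndrg1 (-0.36) were lower, and Myc was higher (0.47).

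**Figure D5:**
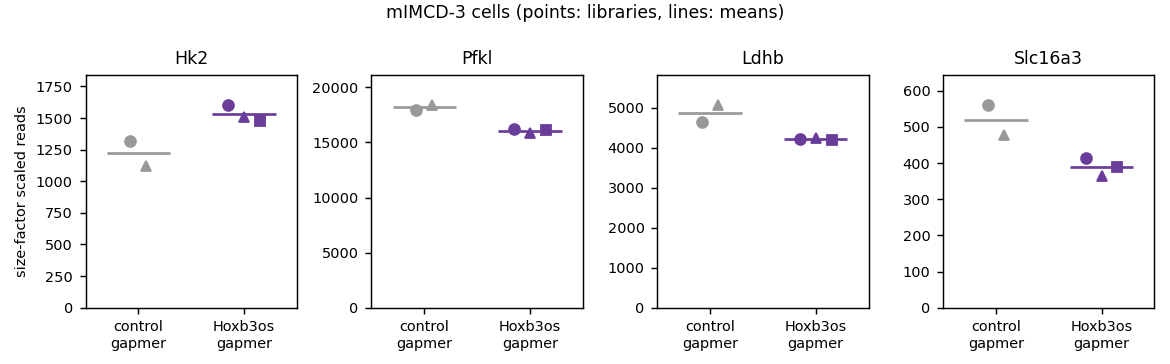
Size-factor-scaled reads of the 4 members listed in the cell table, for control gapmer (grey, 2 libraries) and Hoxb3os gapmer (purple, 3 libraries), with lines at group means and axes from 0. Hk2 is higher with the Hoxb3os gapmer (1473 to 1604 against 1119 to 1322), and Pfkl, Ldhb and Slc16a3 are lower, all without overlap. The authors selected the listed genes on this comparison, so the lack of overlap carries no weight of its own.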

How the data were processed

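RNA was extracted with Trizol and sequenced from TruSeq libraries, per the labels' protocols. The submitters' processing notes name STAR 2.4.2a, RSEM 1.2.22, Cufflinks 2.2.1 and edgeR with mm10 for kidneys, and Trimmomatic 0.32, STAR 2.4.2a, SAMtools 1.0 and DESeq2 1.12.3 for cells; no source used here gives their settings or the strand. The titles of the Pkd2 knockouts carry "(WT)", and they were grouped by genotype and description.

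The authors deposited kidney values as a signal, read counts scaled per library to a common size; 93.9% to 96.2% of values came out as whole reads within 0.02. For cells the authors deposited a signal as well, counts over a size factor. The log2 fold changes and adjusted p-values deposited by the authors are quoted only where named; log2 CPM and likelihood ratio score columns deposited by the authors were not used.

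Kidney genes at 1 or more in 2 or more libraries entered a single fit by limma 3.58.1 (trend, R 4.3.3) on log2(value + 1), on 4 residual and 4.77 prior degrees of freedom. Calls are Benjamini-Hochberg adjusted p below 0.05 over all tested genes. The mean contrast takes both knockout effects with equal weight. The cell table had its own fit. The script was tested on simulated data. Alternatives were a pseudocount of 0.1, no filter, quantile scaling, mitochondrial and small structural RNA left out, edgeR 4.0.16 and DESeq2 1.42.0 on recovered reads, each model alone, covariates, a replicate block and leaving out each library. Same-numbered libraries of different groups had correlations of deviations from -0.38 to 0.34, so the numbers do not pair them. Named genes were all members, each list's called genes, up to 3 of highest level and the 3 nearest in correlation to Slc16a3, Pfkp and Ldhb. Members and lists were chosen with earlier results of these data known. A gene of the lists is not reported here.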

Additional observations from a re-analysis of the deposited data

How the results depend on the processing

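Of 902 values of a member in a comparison under an alternative, 778 kept direction and side of the threshold, 40 lost and 39 gained a call, and 45 changed sign, none of them called as reported. Precision is limited by 2 libraries a group.

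With no filter on low values the members called numbered 0 for Pkd1, 1 for Pkd2, 3 for the mean of both and 0 for age, with more genes adjusted over. Of all genes, that fit called 790, 1812, 3944 and 1365 in these comparisons, against 1550, 2587, 4532 and 1801. DESeq2 on the recovered reads called 3 for Pkd1 and 3 for age (2203 and 2285 of all genes, against 1550 and 1801). A fit on each model alone called 3 for Pkd1 and 1 for Pkd2 (1736 and 1366, against 1550 and 2587). The Y-linked covariate called 4 for Pkd1 (2491), and the small structural RNA covariate 7 for Pkd1, 1 for the difference (Pfkp) and 5 for age (2638, 39 and 2820 of all genes, against 1550, 1 and 1801); the cause was not tested. With the replicate block, a pairing by number that the libraries did not bear out, the counts were 1 for Pkd1, 3 for Pkd2 and 4 for the mean (Pfkp lost, adjusted p = 0.0515 in limma). The block fit called 1231, 2200 and 4051 of all genes, against 1550, 2587 and 4532. Pfkp was also lost from the mean with the Y-linked covariate (limma adjusted p = 0.0584) and with no filter (limma adjusted p = 0.0895). Leaving out a library gave 0 to 4 for Pkd1, 0 to 4 for Pkd2, 3 to 6 for the mean and 0 to 3 for age, with 332 to 2487, 669 to 4328, 2544 to 6034 and 412 to 2571 of all genes called. Slc16a3 and Ldhb stayed called in the mean of both under every alternative run.

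Leaving out mitochondrial and small structural RNA moved the median of all genes by -0.14 (log2) for age and for the difference, and the higher share of calls for age from 41.0% to 27.8%, for Pkd2 from 54.0% to 64.0%.

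Signs that changed, in log2 and none called: for Pkd2, Pfkp under quantile scaling 0.0603, without mitochondrial and small RNA 0.0802, by DESeq2 0.0036 and with the Y-linked covariate 0.074; Pfkl 0.0314 without that RNA and 0.12 with the Y-linked covariate; Pkm -0.26, Ldha -0.0322 and Slc2a1 -0.13 with the small RNA covariate. With the latter, Hk1 was -0.0047 in the mean and Slc16a3 0.47 in the difference. The difference of Hk2 was -0.0654 by edgeR, -0.0743 by DESeq2 and -0.22 with the Y-linked covariate. For age, Hk2 was -0.49 with the Y-linked covariate; Pkm was -0.10 under quantile scaling, -0.0585 without that RNA and -0.18 with the Y-linked covariate; Ldha was -0.12, -0.0596 and -0.0141 likewise. Leaving out a library gave, for Pkd1, Pfkl -0.25 to 0.92. For Pkd2 it gave Pfkp -0.26 to 0.22, Pfkl -0.46 to 0.33, Pkm -0.35 to 0.36, Ldha -0.0087 to 0.37 and Slc2a1 -0.33 to 0.59. For the mean it gave Hk1 -0.12 to 0.22 and Pfkl -0.16 to 0.43. For the difference it gave Hk2 -0.89 to 1.08, Pfkl -0.19 to 0.98, Ldha -0.0601 to 0.98 and Slc16a3 -1.34 to 0.87. For age it gave Pfkl -0.48 to 0.0406, Pkm -0.11 to 0.28 and Ldha -0.0836 to 0.25.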
